A study of Mus musculus with 3 samples.

Results

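The genes that take up, store, export and burn lipid were examined in mouse bone marrow-derived dendritic cells (BMDC). They are 44 genes named by symbol, and each was read from the array probe set that names it alone in the platform annotation, taking the probe set with the highest mean where a gene had several. That left 38 of the 44 genes, out of 19938 genes in all. Apoc2, Soat1, Soat2, Acsl1, Acsl3 and Cpt1b were not analysed here. Total RNA of 3 samples was hybridised to Affymetrix whole-transcript arrays, 1 array per sample, and all 3 samples form 1 group. The marrow came from C57BL/6J mice, an inbred strain, and was cultured for 9 days with 20 ng/ml each of the cytokines GM-CSF and IL-4. No genotype, treatment or time contrast exists, so no group is set against another and no test between groups was possible. Separate mice or cultures are not named in the labels, and every spread below is the spread between these 3 samples, which may be technical.

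Myeloid cells take up fatty acids and cholesterol with lipoproteins and dead cells. Lipoprotein lipase frees fatty acids from lipoproteins, fatty acid binding proteins carry them through the cytosol, and acyl-CoA synthetases activate them. Surplus fatty acid and cholesterol are esterified and kept in lipid droplets under a coat of perilipins, from which lipases release them for oxidation in mitochondria, while cholesterol leaves the cell through ABC transporters onto apolipoproteins. Accumulated lipid is known to alter antigen presentation by dendritic cells, and the nuclear receptors PPARγ and LXR drive many of these genes in macrophages and dendritic cells.

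Values are log2 expression as deposited by the authors. The background limit was the 95th percentile of 1210 probe sets for odorant and pheromone receptors, genes not expected in these cells, and a gene was called above background where it passed this limit on each array. It stood at 5.54, 5.54 and 5.55 log2 units in replicates 1, 2 and 3. Probe sets differ in binding strength, so the level of a gene was compared between arrays and with this limit, and not with the level of another gene. In 44.8% of all 35556 probe sets the 3 values were identical to the last digit, so an SD of 0 does not measure precision. With 3 arrays the precision of each value is limited. Of the dendritic cell markers 7 of 8 were above background, among them Itgax (11.91, 11.92 and 11.91 in replicates 1, 2 and 3), H2-Aa (12.57 in each array) and H2-Ab1 (12.31, 12.36 and 12.42), and Flt3 was not. Ccr7, the receptor of migrating dendritic cells, had 10.15, 10.50 and 9.74 and was lowest in replicate 3. Of the macrophage markers 5 of 8 were above background. Adgre1 (10.25, 10.18 and 10.04), Csf1r (11.03, 10.94 and 10.77) and Mertk (10.58, 10.58 and 10.65) were among them, whereas Cd163 (4.44 in each array), Vsig4 (3.27 in each) and Timd4 (5.15, 5.10 and 5.10), known from resident macrophages, were below it.

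Of the 38 measured lipid genes 34 (89.5%) were above background, against 60.5% of all genes. The 4 others were Apoc1, Vldlr, Fabp3 and Plin5, and they lay below the limit in all 3 arrays. The lowest of the 34 were Dgat2 at 5.88 and Plin1 at 5.93 in each array, and the highest of the 4 was Vldlr at 5.41. These 3 genes, Plin5 and Fabp3 lay within 0.4 log2 units of the limit, so their calls rest on where it was set. With the 99th percentile as the limit 31 of the 38 genes were above it, against 46.2% of all genes, and with the 90th 36 were, against 68.2%.

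**Figure D1:**
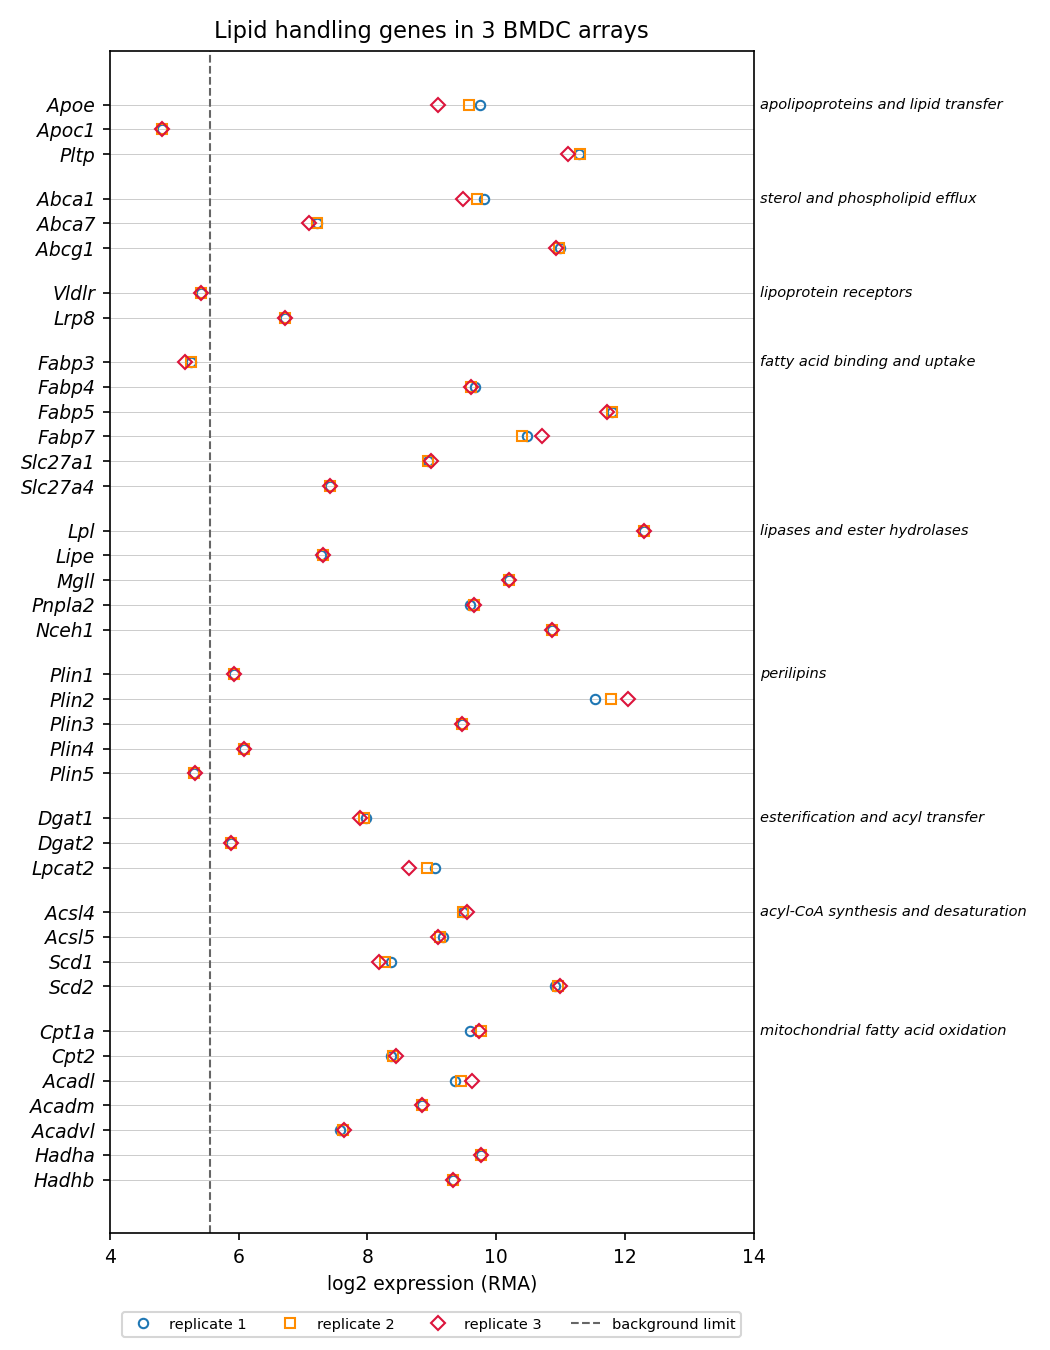
Log2 expression of the 38 measured lipid genes on the horizontal axis, 1 row per gene grouped by role, with a circle, a square and a diamond for replicates 1, 2 and 3 and a dashed line at the highest of the 3 background limits, 5.55. Apoc1, Vldlr, Fabp3 and Plin5 lie left of the line, and the symbols of most genes coincide, with Apoe and Plin2 the most spread.

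Apolipoproteins and lipid transfer were represented by 3 measured genes, of which 2 were above background. Apoe, the apolipoprotein that macrophages secrete to accept cholesterol, had 9.75, 9.57 and 9.10 in replicates 1, 2 and 3 (9.47 ± 0.34, SD, n = 3). It was lowest in replicate 3 and spanned 0.66 log2 units (1.57-fold), the widest span of the 34 genes. Pltp, which transfers phospholipid between lipoproteins, had 11.28, 11.30 and 11.11 and was also lowest in replicate 3. Apoc1, a small apolipoprotein that inhibits lipid transfer, stood at 4.81 in each array, below background. Apoe and Apoc1 are direct neighbours on chromosome 7, with 0 protein-coding genes between them in the GRCm38.p6 RefSeq annotation, and their calls differed.

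All 3 genes of sterol and phospholipid efflux were above background, and all 3 were lowest in replicate 3. Among all genes 60.5% were above background, and 52.9% of these with a single lowest array were lowest in replicate 3. Abca1, which loads cholesterol and phospholipid onto lipid-poor apolipoproteins, had 9.81, 9.71 and 9.49 in replicates 1, 2 and 3 (9.67 ± 0.16, SD, n = 3). Abcg1, which exports cholesterol to mature high-density lipoprotein, had 10.99, 10.98 and 10.93. Abca7, a relative of Abca1 with a role in phospholipid handling and phagocytosis, had 7.21, 7.21 and 7.10. The difference of replicate 3 from the mean of the others was largest for Abca1 among these, at -0.27 log2 units, and -0.05 for Abcg1.

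The lipoprotein receptor genes differed in their calls and not between arrays. Lrp8, a receptor for apolipoprotein E and reelin, had 6.73 in each array. Vldlr, the receptor for very low density lipoprotein, had 5.41 in each array and was not above background.

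Of the 6 genes of fatty acid binding and uptake 5 were above background. Fabp4, the binding protein of adipocytes and macrophages, had 9.67, 9.61 and 9.61 in replicates 1, 2 and 3. Fabp5, the epidermal type that myeloid cells share, had 11.79, 11.80 and 11.72. These 2 genes lie close together on chromosome 3, with 2 protein-coding genes between them. Fabp7, named for its expression in the developing brain, had 10.47, 10.40 and 10.70 (10.52 ± 0.16, SD, n = 3), and was highest in replicate 3. Fabp3, the heart type, had 5.26, 5.26 and 5.17, below background on every array. The fatty acid transport protein gene Slc27a1 had 8.94, 8.94 and 8.99, and its relative Slc27a4 had 7.42 in each array. Members of the family outside the 44 genes were mostly silent, since Fabp1 (2.89), Fabp2 (3.58), Fabp6 (3.89) and Fabp9 (3.80) lay below background at 1 value in each array.

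Fabp3, Fabp5 and Hadhb each had 2 probe sets of their own, and the pairs behaved differently. In Fabp3 the pair differed by 0.34 log2 units on every array, and in Hadhb by 0.31 on every array. For Fabp5 the difference was 0.10, 0.11 and 0.04 in replicates 1, 2 and 3. The pairs of Fabp3 and Hadhb thus moved in parallel and are not separate observations of the differences between arrays. Whether both probe sets of a pair measure the same transcript was not tested.

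All 5 lipases and ester hydrolases were above background, against 60.5% of all genes, and none spanned more than 0.1 log2 units. Lpl, lipoprotein lipase, had 12.29 in each array. Pnpla2, the enzyme that opens triglyceride breakdown in lipid droplets, had 9.59, 9.66 and 9.66 in replicates 1, 2 and 3. Lipe, the hormone-sensitive lipase that acts on diacylglycerol, had 7.28, 7.31 and 7.31, and Mgll, which splits monoacylglycerol, had 10.20 in each. Nceh1, a cholesteryl ester hydrolase of macrophages, had 10.87 in each array. RNA for each step from triglyceride to free fatty acid was thus above background, while the enzymes themselves were not measured.

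Perilipins, the coat proteins of lipid droplets, were above background in 4 of 5 cases. Plin2, the perilipin found in most cell types that store lipid, had 11.54, 11.77 and 12.04 in replicates 1, 2 and 3 (11.78 ± 0.25, SD, n = 3). It was lowest in replicate 1 and highest in replicate 3, with a span of 0.50 log2 units (1.41-fold). Plin3, which moves between cytosol and droplet, had 9.47 in each array. Plin1, the perilipin of adipocytes, and Plin4 stood at 5.93 and 6.08 in each array, above the limit by 0.38 and 0.53 log2 units. Plin5, the perilipin of oxidative tissue, had 5.31, 5.31 and 5.32 and was below it, while its direct neighbour on chromosome 17 is Plin4.

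Adipocyte markers were read beside the genes best known from fat tissue. Of 6 measured adipocyte markers 5 were below background, among them the hormone genes Adipoq (4.40, 4.40 and 4.25 in replicates 1, 2 and 3) and Lep (4.15 in each array). Retn was the exception, at 5.77 in each array, 0.22 log2 units above the limit of replicate 3. Fabp4, Plin1, Lpl and Lipe were above background, as Retn was, whereas Adipoq and Lep were not. Plin1 passed the limit by only 0.38 log2 units on its closest array.

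Esterification and acyl transfer were represented by 3 measured genes, all above background. Dgat1, which makes triglyceride from diacylglycerol, had 7.99, 7.94 and 7.89 in replicates 1, 2 and 3, while Dgat2, an unrelated enzyme of the same reaction, had 5.88 in each array. Lpcat2, which makes phosphatidylcholine and platelet-activating factor in inflammatory cells, had 9.05, 8.93 and 8.65 (8.88 ± 0.20, SD, n = 3). It was lowest in replicate 3, by 0.40 log2 units from replicate 1.

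Fatty acid activation and desaturation genes were above background in all 4 measured cases, against 60.5% of all genes. Acsl4, the acyl-CoA synthetase that prefers arachidonic acid, had 9.49, 9.49 and 9.55 in replicates 1, 2 and 3. Acsl5, found in mitochondria and the endoplasmic reticulum, had 9.18, 9.13 and 9.09. The stearoyl-CoA desaturase genes, which introduce the bond that makes oleic acid, went apart between arrays. Scd1 had 8.37, 8.27 and 8.18 and was lowest in replicate 3, while Scd2 had 10.91, 10.96 and 10.99 and was highest there. They lie near each other on chromosome 19, with 1 protein-coding gene between them.

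All 7 measured genes of mitochondrial fatty acid oxidation were above background, against 60.5% of all genes, and none was lowest in replicate 3. In 2 of them the values were identical, and 5 had a single lowest array. Among all genes above background with a single lowest array 52.9% were lowest in replicate 3. Cpt1a, the carnitine palmitoyltransferase that controls entry into mitochondria, had 9.60, 9.76 and 9.73 in replicates 1, 2 and 3. Cpt2, its partner on the inner membrane, had 8.36, 8.39 and 8.44. Among the acyl-CoA dehydrogenases, which carry out the opening step of each cycle, Acadl had 9.36, 9.46 and 9.63 (9.48 ± 0.14, SD, n = 3). Acadvl had 7.58, 7.62 and 7.63, and Acadm had 8.84 in each array. Acadl, Acadvl, Cpt2 and Cpt1a were lowest in replicate 1. The trifunctional protein genes Hadha (9.77 in each array) and Hadhb (9.33 in each) were nearly flat. They are direct neighbours on chromosome 5 and lie head to head, so that their promoter windows in the RefSeq table, chr5:30154931-30155230 on the minus strand and chr5:30155003-30155302 on the plus strand (GRCm38.p6), share 228 bases.

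Most of the 34 genes above background differed little between arrays. The 3 values were identical in 10 of them (29.4%), against 46.5% of all genes above background and 24.2% of the 2168 genes above background with a mean over 9 log2 units. A span over 0.1 log2 units was found in 10 of the 34 genes, against 24.2% of all genes above background. Spans over 0.3 were found in 5, namely Apoe, Plin2, Lpcat2, Abca1 and Fabp7, against 6.41% of all genes above background. Apoe was the 1 gene over 0.5 (2.61% of all), and Plin2 stood just under that threshold. The median span was 0.06 log2 units in the lipid genes, 0.01 in all genes above background and 0.05 in those with a mean over 9. Identical values thus made up a smaller share of well detected genes in general, and 20 of the 34 lipid genes had a mean over 9. Of these 20, 4 were identical in the arrays, 7 spanned over 0.1 log2 units, against 34.3% of all genes at that level, and 4 spanned over 0.3, against 8.03%.

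**Figure D2:**
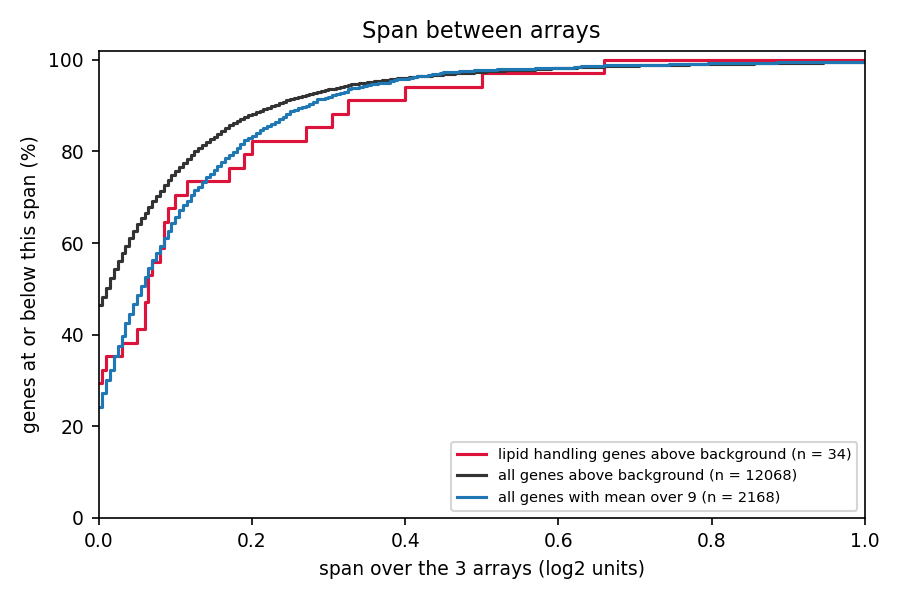
Share of genes (%, vertical axis) whose span over the 3 arrays is at or below the value on the horizontal axis (log2 units), for the 34 lipid genes above background, all 12068 genes above background and the 2168 of these with a mean over 9. Between 0.2 and 0.35 log2 units the curve of the lipid genes runs below the other curves, and it ends at the span of Apoe, 0.66.

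Differences between arrays were then read over all lipid genes. Of the 22 lipid genes with a single lowest array 12 were lowest in replicate 3, 8 in replicate 1 and 2 in replicate 2. Among all genes above background with a single lowest array, 52.9% were lowest in replicate 3, 34.3% in replicate 1 and 12.8% in replicate 2, so the lipid genes as a whole were close to the shares of all genes. These counts depend on small shifts, tried by centring each array on the median of all its genes above background. Then 21 lipid genes were lowest in replicate 1 alone, 3 in replicate 2 and 10 in replicate 3. Centring lowered replicate 1 the most, so the 10 lipid genes with identical values became lowest there. The shares of all genes after centring were not computed, so these counts are not set against them. Without centring, the lipid genes were near the shares of all genes for the highest array too. It was replicate 3 in 8 of 19 lipid genes (48.1% of all such genes), replicate 1 in 8 (38.6%) and replicate 2 in 3 (13.4%). The median deviation from the gene mean was 0 in every array, for the lipid genes and for all genes above background alike.

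By role, the difference of replicate 3 from the mean of replicates 1 and 2 took either sign. It ran from -0.57 to -0.18 log2 units in the 2 genes of apolipoproteins and lipid transfer and from -0.27 to -0.05 in the 3 efflux genes. In the 7 oxidation genes it ran from 0 to 0.22, and in the perilipins from 0 to 0.38, where Plin2 alone was not at 0. In esterification and acyl transfer it ran from -0.34 for Lpcat2 to 0 for Dgat2, and the lipoprotein receptor gene Lrp8 was at 0. The remaining roles held both signs. The range was -0.08 to 0.27 in fatty acid binding and uptake and -0.15 to 0.06 in acyl-CoA synthesis and desaturation. In the lipases and ester hydrolases it was -0.0016 to 0.035. No difference between roles was tested, since genes of 1 array are not replicates. In whole cultures, fewer cells of a type and less RNA per cell cannot be told apart.

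**Figure D3:**
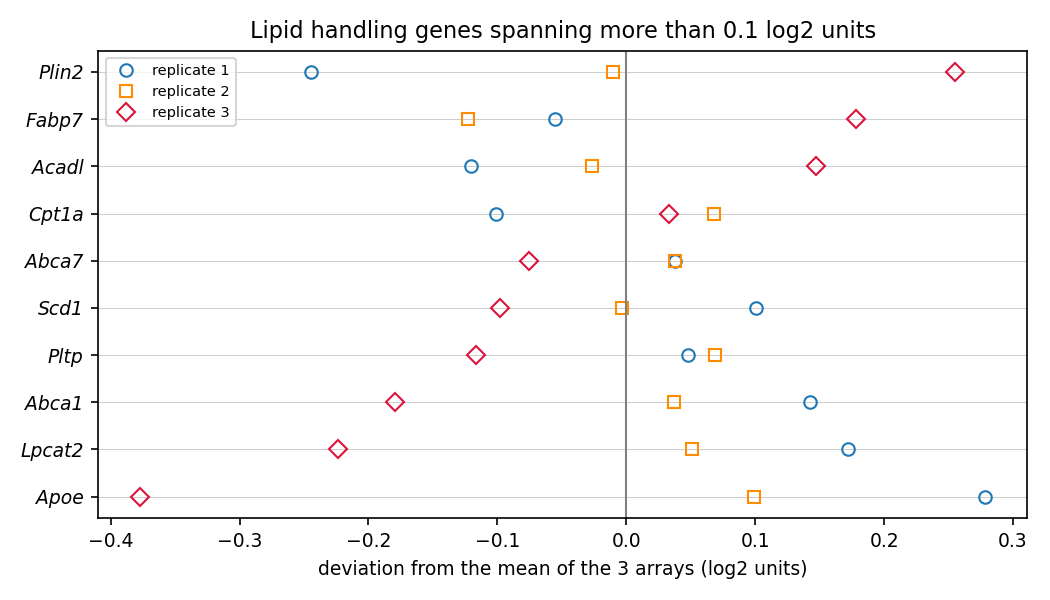
Deviation of each array from the mean of the 3 arrays (log2 units, horizontal axis) for the 10 lipid genes above background that spanned more than 0.1 log2 units, with a circle, a square and a diamond for replicates 1, 2 and 3. Replicate 3 is the highest array for Plin2, Fabp7 and Acadl and the lowest for Abca7, Scd1, Pltp, Abca1, Lpcat2 and Apoe, while for Cpt1a it lies between the others.

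The promoters of the 5 genes with a span over 0.3 log2 units are shown because these genes carry the differences between arrays, Plin2 and Fabp7 being highest and Apoe, Abca1 and Lpcat2 lowest in replicate 3. The windows come from RefSeq (GRCm38.p6) and run from 250 bases before to 50 bases after the outermost start of the gene. A window was matched by symbol for 33 of the 44 genes. Capitals mark, on either strand, ACGTG (a core of hypoxia response elements that lies within the E-box CACGTG too), AGGTCA (the core bound by many nuclear receptors), GGGCGG (the Sp1 box), CCAAT and TATAAA. The windows are Plin2 at chr4:86670010-86670309 (minus strand), Fabp7 at chr10:57784673-57784972 (plus strand), Apoe at chr7:19699139-19699438 (minus strand), Abca1 at chr4:53159846-53160145 (minus strand) and Lpcat2 at chr8:92855083-92855382 (plus strand).
Plin2: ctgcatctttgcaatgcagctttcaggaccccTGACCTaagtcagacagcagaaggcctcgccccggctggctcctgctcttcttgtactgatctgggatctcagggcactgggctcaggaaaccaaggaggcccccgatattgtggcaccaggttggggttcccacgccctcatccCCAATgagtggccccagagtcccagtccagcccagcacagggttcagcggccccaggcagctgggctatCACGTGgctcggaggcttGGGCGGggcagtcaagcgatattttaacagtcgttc
Fabp7: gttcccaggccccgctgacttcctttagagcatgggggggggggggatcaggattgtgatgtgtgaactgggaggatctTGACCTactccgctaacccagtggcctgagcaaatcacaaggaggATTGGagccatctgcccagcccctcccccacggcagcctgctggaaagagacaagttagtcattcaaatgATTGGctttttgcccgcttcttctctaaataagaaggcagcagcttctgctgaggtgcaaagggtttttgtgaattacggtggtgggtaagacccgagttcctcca
Apoe: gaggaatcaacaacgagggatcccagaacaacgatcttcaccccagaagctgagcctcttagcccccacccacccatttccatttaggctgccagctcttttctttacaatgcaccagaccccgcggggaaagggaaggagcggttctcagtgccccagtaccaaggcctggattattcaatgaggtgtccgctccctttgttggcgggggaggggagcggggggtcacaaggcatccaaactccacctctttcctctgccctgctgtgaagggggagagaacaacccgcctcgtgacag
Abca1: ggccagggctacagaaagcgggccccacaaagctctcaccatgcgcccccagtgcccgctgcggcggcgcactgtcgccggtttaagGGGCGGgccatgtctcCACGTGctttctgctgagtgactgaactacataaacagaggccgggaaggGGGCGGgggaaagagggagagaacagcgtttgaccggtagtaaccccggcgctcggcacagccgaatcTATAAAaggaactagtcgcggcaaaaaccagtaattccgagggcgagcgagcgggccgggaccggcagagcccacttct
Lpcat2: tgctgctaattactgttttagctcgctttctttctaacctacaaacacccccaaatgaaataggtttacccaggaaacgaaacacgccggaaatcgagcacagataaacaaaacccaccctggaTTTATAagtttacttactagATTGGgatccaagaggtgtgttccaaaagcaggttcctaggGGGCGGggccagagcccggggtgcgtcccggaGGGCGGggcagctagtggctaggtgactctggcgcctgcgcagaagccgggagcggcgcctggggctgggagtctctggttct

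The windows of Plin2 and Fabp7 hold AGGTCA, read from the other strand as TGACCT. Of the other genes highest in replicate 3, the window of Acadvl holds it, whereas those of Acadl, Cpt2, Acsl4 and Slc27a1 do not. No match was recorded for Scd2, also highest there. Genes not called highest in replicate 3 hold AGGTCA too. These are Cpt1a, highest in replicate 2, Acadm, identical in the arrays, Plin5, below background, and Apoc2, not analysed here. In Plin2 it begins 218 bases before the start and in Fabp7 171 bases before it. Plin2 also holds CACGTG 4 bases before the start, which contains ACGTG on both strands, and a CCAAT box 73 bases before it. Abca1 holds CACGTG as well, 147 bases before the start, with TATAAA 29 bases before it and GGGCGG at 163 and 97 bases. Lpcat2 has GGGCGG 65 and 33 bases before its start, and the Apoe window shown has none of the 5 motifs. Apoe has 3 windows, and only the outermost is shown. ACGTG is held by 19.6% of all 32851 windows, and the other shares are 16.3% for AGGTCA, 35.7% for GGGCGG, 37.4% for CCAAT and 13.6% for TATAAA. Among the 33 lipid genes with a window the shares were 21.2% for ACGTG, 21.2% for AGGTCA, 60.6% for GGGCGG, 42.4% for CCAAT and 9.09% for TATAAA. The lipid shares count genes, each by its outermost window, whereas the 32851 windows come from 27025 genes, some with several. The shares thus have different units, and no difference between them was tested. A match is a description of letters and not a binding site, and ACGTG occurs here both in a gene that was highest and in a gene that was lowest in replicate 3.

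Other lists moved with these differences. All 10 hypoxia genes above background were highest in replicate 3 and lowest in replicate 1, among them Vegfa, a growth factor for vessels, with 9.07, 9.49 and 10.09 in replicates 1, 2 and 3. The mitochondrial gene Bnip3 had 7.85, 8.43 and 8.87, the prolyl hydroxylase gene Egln3 6.91, 7.46 and 7.63 and the kinase gene Pdk1 7.82, 7.89 and 7.90. Hilpda, a lipid droplet protein induced by low oxygen that inhibits the lipase encoded by Pnpla2, had 8.00, 8.91 and 9.65, the same order as Plin2 and a span of 1.65 log2 units. Vldlr, also known as a hypoxia target in other cells, had 5.41 in each array. The part of oxygen supply in the values of Plin2 was not tested.

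The T and NK cell markers and the cell cycle genes above background were lowest in replicate 3, as Apoe, Abca1 and Lpcat2 were. Among all genes above background with a single lowest array 52.9% were lowest there. Of 5 macrophage markers above background 3 were lowest in replicate 3, near that share. Mertk was highest there, and Cd14 had its lowest value in replicates 2 and 3 alike. The difference of the 5 markers from the mean of replicates 1 and 2 ran from -0.33 to 0.07 log2 units. Of 9 T and NK cell markers 7 were above background, Ncr1 and Klrd1 not among them, and all 7 were lowest in replicate 3, with differences from -1.03 to -0.53, and so were all 9 cell cycle genes, with -1.27 to -0.40. The stromal genes Dcn (8.12, 5.36 and 5.41 in replicates 1, 2 and 3), Sparc (7.64, 5.34 and 5.78), Lox (7.58, 4.47 and 4.63) and Bgn (8.19, 5.33 and 5.31) were high in replicate 1, where Apoe, Abca1 and Lpcat2 were highest. Pdgfrb had 5.55, 5.38 and 5.38 and passed the limit in replicate 1 alone. Among 9 stromal markers 3 were above background on all arrays. These were Col1a1 (6.94, 6.69 and 6.76 in replicates 1, 2 and 3), Col1a2 (6.53, 6.36 and 6.36) and Col3a1 (6.10 in each array). They spanned at most 0.25 log2 units. Cxcl12 (5.02, 4.99 and 4.99) lay below background on all arrays. Of 7 neutrophil markers 2 were above background on every array and 3 on some, Ly6g (6.73, 6.80 and 4.86), Lcn2 (7.98, 6.69 and 5.12) and Retnlg (7.35, 7.11 and 5.55). Mast cell and basophil markers were above background on every array in 3 of 7 cases and megakaryocyte markers in 5 of 5. The B cell list had 2 of 4 and the erythroid list 0 of 3. The part of these cells in the values of Apoe, Abca1 and Lpcat2 was not tested.

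**Figure D4:**
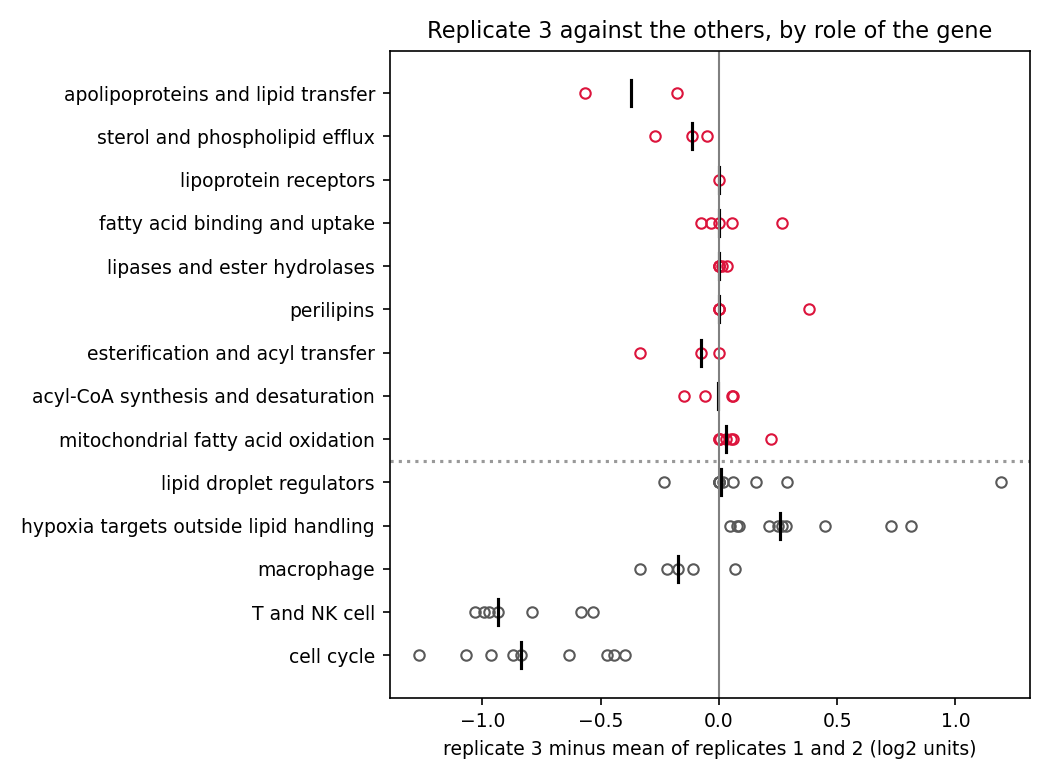
Difference of replicate 3 from the mean of replicates 1 and 2 (log2 units, horizontal axis) for each gene above background, by role for the 34 lipid genes (upper rows, coloured) and for 5 other lists (lower rows, grey), with a black bar at the median of each row. Efflux genes lie left of 0 and oxidation genes at or right of 0, while hypoxia targets lie right and T and NK cell and cell cycle genes left of all lipid gene medians.

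Further genes of lipid handling outside the 44 were read from lists by role. Of 105 such genes with a probe set of their own 79 were above background, against 60.5% of all genes. Of the others 24 were below it on all arrays and 2 exceeded it on some, Slc27a3 (5.59, 5.56 and 5.43 in replicates 1, 2 and 3) and Acox2 (5.55 in each array, within 0.01 of the limit). Spans over 0.5 log2 units were found in 2 of the 79, Hilpda and Pex11a.

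All 9 lipid uptake receptors were above background, against 60.5% of all genes, though Gpihbp1 and Marco passed the limit by only 0.045 and 0.20 log2 units on their closest array. Cd36, a receptor for oxidised lipoprotein and fatty acids, had 12.48 in each array, the scavenger receptor gene Msr1 had 11.04 in each, and Olr1, a receptor for oxidised lipoprotein, had 11.37 in each. The 5 genes of lysosomal lipid handling were above background too, with the acid lipase gene Lipa at 12.33, 12.28 and 12.33 in replicates 1, 2 and 3. The cholesterol exporters of the lysosome, Npc1 (10.60, 10.72 and 10.95) and Npc2 (11.29, 11.32 and 11.46), were both highest in replicate 3. In the same list Pla2g15 (9.48, 9.47 and 9.30) was lowest there, and Smpd1 had 8.78 in each array. Among all genes above background with a single highest array 48.1% were highest in replicate 3.

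Droplet regulators and glycerolipid synthesis were detected in part. Of 12 droplet regulators 10 were above background, with G0s2, an inhibitor of the lipase encoded by Pnpla2, at 5.60 in each array and its activator Abhd5 at 8.29, 8.32 and 8.32 in replicates 1, 2 and 3. Cidea (3.48 in each) lay below. Of 13 glycerolipid synthesis genes 10 were above background, among them the acyltransferase genes Gpam (6.47, 6.52 and 6.61), Gpat3 (5.60 in each) and Gpat4 (7.97 in each). The monoacylglycerol acyltransferase genes Mogat1 and Mogat2 and the lipin gene Lpin3 were the 3 below it. G0s2 and Gpat3 passed the limit by only 0.045 and 0.053 log2 units on their closest array, so their calls rest on where it was set.

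The lists of relatives of the 44 genes had the fewest calls. Among other acyl-CoA synthetases and transport proteins 2 of 11 were above background, and Acsl6 (5.16 in each array) was not, Acsbg1 (6.10 in each) was and Acsbg2 (4.32 in each) was not. Among other ABC lipid transporters 4 of 12 were, with Abca2 (7.50 in each array) and Abca3 (8.14, 8.19 and 8.19 in replicates 1, 2 and 3) above and Abca4 (5.05 in each) below.

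Oxidation genes outside the 44 were detected widely. All 18 further mitochondrial genes were above background, against 60.5% of all genes. Acads had 8.41, 8.50 and 8.41 in replicates 1, 2 and 3, while Acad9 had 7.07 and Acad10 5.90 in each array. Acad12 and Acad10 passed the limit by only 0.16 and 0.35 log2 units on their closest array. Of 11 peroxisomal genes 9 were above background, among them Acox3, an acyl-CoA oxidase gene, at 9.76, 9.76 and 9.74 and Ehhadh at 6.47, 6.47 and 6.50. Pex11a, which acts in peroxisome division, had 7.30, 7.45 and 7.95 and was highest in replicate 3. None of the 18 mitochondrial genes spanned more than 0.3 log2 units, as none of the 7 among the 44 did. Among all genes above background only 6.41% did. The 3 values were identical in 44.4% of the 18 genes, against 46.5% of all genes above background.

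Of the lipid sensing transcription factors and coregulators 12 of 14 were above background. Pparg, the receptor for fatty acid ligands that IL-4 induces in myeloid cells, had 9.84, 9.73 and 9.68 in replicates 1, 2 and 3. Ppard had 8.46, 8.52 and 8.65, highest in replicate 3, and Ppara, the receptor that drives fatty acid oxidation in liver, lay below background at 4.84 in each array. Nr1h3, which encodes LXRα (named after its values were seen), had 7.08 in each array, and Nr1h2, which encodes LXRβ, was not analysed here.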

How the data were processed

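Per the labels' protocols, marrow cells were plated at 2000000 cells per well, and biotin-labelled targets were made from 150 ng of Trizol-extracted RNA by whole-transcript amplification. Per the submitters' processing notes the authors used RMA, and the deposited log2 values have its range. This method corrects background, quantile normalizes the arrays and summarizes probes by median polish, which can give identical values on several arrays and dampen differences between them. Software, version and genome build are not given in the sources used here. Array medians were 5.91, 5.91 and 5.91, and the values are not centred.

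The platform annotation pairs 21789 of the 35556 probe sets with 1 gene and 1621 with several, and leaves 12146 unlisted. Entrez identifiers of 21698 were matched to RefSeq, which changed 0 symbols. Calls, spans and deviations were computed with pandas (version 2.3.3) and tried on simulated data. The genes and lists were chosen with earlier results of these data known. Named are all 44 genes and, of other lists, the leading 3 measured genes, genes above background on some arrays only and genes spanning over 0.5 log2 units, while the T and NK cell, cell cycle, mast cell and basophil, megakaryocyte, B cell and erythroid lists are given mainly by counts; other names followed their values. Alternatives covered the limit, the call, the probe set rule, centring, the span and each array left out.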

Additional observations from a re-analysis of the deposited data

How the results depend on the processing

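The count of 34 genes above background was 31 with a 99th percentile limit and 36 with a 90th percentile limit. At the 99th percentile Plin1, Plin4 and Dgat2 lay below the limit by margins of -0.40, -0.25 and -0.45 log2 units, and at the 90th Vldlr and Plin5 lay above it by 0.20 and 0.11. The count stayed at 34 with the call on the mean, with other probe set rules and without any 1 array, and was 35 of 41 with probe sets naming several genes. The count of genes spanning over 0.5 log2 units, 1 as reported, was 5 at 0.3, 0 at 1, and 0 to 1 with an array left out. It was 2 with each array centred on the median of its genes above background. It was 0 without replicate 1 and 0 without replicate 3. Centring, which shifts arrays by at most 0.011 log2 units and so breaks identical values, put 21 genes lowest in replicate 1 alone. With an array left out, 9 to 10 genes were lowest in replicate 2, 10 to 11 in replicate 1 and 12 to 13 in replicate 3, since fewer arrays compete for the lowest place. The difference of replicate 3 from the others stayed between -0.66 and -0.48 for Apoe and between 0.27 and 0.50 for Plin2, and for Cpt1a it ran from -0.035 without replicate 1 to 0.13 without replicate 2. Median deviations kept within the spread between arrays under each alternative. No paired analysis was possible because the 3 samples form 1 group. Signal near background limits the calls of Dgat2, Plin1, Plin4, Vldlr, Plin5 and Fabp3.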
